A study of Mus musculus with 34 samples.

Results

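The 9 genes described here encode proteins that detect foreign or misplaced nucleic acid inside cells, pass the signal on, or destroy and edit RNA and DNA. They were chosen by name as *Ddx58*, *Ifih1*, *Dhx58*, *Mavs*, *Eif2ak2*, *Adar*, *Samhd1*, *Trex1* and *Tmem173*, and all 9 were among the 13108 gene rows of the count table. RNA was sequenced from hematopoietic stem cells (HSCs, sorted as LSK CD48-CD150+ cells), 100 cells per library and 2 libraries, A and B, per mouse. *Ythdf2* encodes a reader of the RNA modification m6A that promotes the decay of modified transcripts. *Ythdf2* fl/fl;Vav-iCre mice (conditional knockout, *Ythdf2* CKO), in which the recombinase is driven in blood cells by the Vav promoter, were compared with *Ythdf2* fl/fl mice (control, *Ythdf2* CTL; "wild type" in the labels). Controls and knockouts carried the same floxed allele on a C57BL/6 background, with loxP sites around exon 2 and GFP fused in frame to YTHDF2, so the controls were not free of a modified *Ythdf2*. Young mice were 8 to 12 wk old (4 *Ythdf2* CTL, 4 *Ythdf2* CKO) and aged mice were 1 yr old (4 *Ythdf2* CTL, 5 *Ythdf2* CKO). The comparison asks whether loss of *Ythdf2* changed the transcripts of these genes at either age.

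Totals per library were between 1859784 and 4133477 counts in young mice and between 2009239 and 7784627 in aged mice, and 1 aged control library with 187034 counts (99 B) was left out. Values are CPM (the share of the mouse's counts that fell on a gene, in the customary unit, scaled by TMM for library composition) per mouse after adding its libraries, and 3 counts correspond to between 0.292 and 1.24 CPM in a mouse. The 7 HSC markers *Kit*, *Slamf1*, *Ly6a*, *Procr*, *Hlf*, *Mecom* and *Fgd5* were above 3 counts in every mouse. *Ythdf2* itself was 108 ± 14.9 CPM (SD, n = 4) in young *Ythdf2* CTL and 55.9 ± 4.20 CPM (n = 4) in young *Ythdf2* CKO mice, with no overlap (log2 fold change -0.95, SE 0.17, edgeR quasi-likelihood adjusted p = 0.0406). In aged mice, 2 animals went against their labels: the mouse labelled *Ythdf2* CKO 121 had 188 CPM of *Ythdf2* and the mouse labelled *Ythdf2* CTL 124 had 70.5 CPM. Over all aged mice the log2 fold change of *Ythdf2* was -0.48 (SE 0.33, edgeR adjusted p = 0.661). Aged mice are called knockouts and controls below by their labels, these 2 included, and the aged fold changes of the 9 genes and the genes and counts of the pathway lists are also given without these 2 mice, which leaves 3 *Ythdf2* CTL and 4 *Ythdf2* CKO mice. Y-linked genes had more than 3 counts in 3 of 4 young *Ythdf2* CTL and 1 of 4 young *Ythdf2* CKO mice, and in 1 of 4 and 1 of 5 aged mice. The library names in the labels begin alike within each age and differ between the ages, so that age cannot be told apart from what those names mark. Nothing in the sources states how the counting treated strand or reads that match several genes.

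RIG-I (*Ddx58*) and MDA5 (*Ifih1*) are helicases of the cytoplasm that bind viral or unedited double-stranded RNA and signal through MAVS, an adaptor on mitochondria, to induce type I interferon; LGP2 (*Dhx58*) lacks the signaling domains and tunes both. PKR (*Eif2ak2*) halts translation when it binds double-stranded RNA, and ADAR1 (*Adar*) edits adenosine to inosine in such RNA and keeps self RNA from being sensed. SAMHD1 hydrolyses dNTPs and restricts retroviruses, TREX1 degrades cytoplasmic DNA, and STING (*Tmem173*) relays the signal of the DNA sensor cGAS. Many of these genes are themselves induced by interferon, through ISRE elements bound by STAT and IRF factors or through GAS elements bound by STAT dimers.

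The sequences around the start sites were read from the RefSeq promoter table (GRCm38.p6, windows of 300 bases). The search covered 10 promoters of 7 of the 9 genes. *Dhx58* had no entry, and *Tmem173* was not searched. The sequences are shown because induction by interferon acts through such elements, so that the letters can be set beside the RNA values below. An ISRE core, searched on both strands as GAAANNGAAA, was found in 3 genes, against 3.44% of all 32851 promoters in the table. Each is printed 5′ to 3′ on the strand of the gene as 30 bases with the match in capitals; in *Ddx58* the match reads on the opposite strand.
*Ddx58*, chr4:40239804-40239833, minus strand, match at +3 to +12 from the start site: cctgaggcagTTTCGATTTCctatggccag
*Ifih1*, chr2:62646206-62646235, minus strand, match at +33 to +42: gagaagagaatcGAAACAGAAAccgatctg
*Eif2ak2*, chr17:78882535-78882564, minus strand, match at +19 to +28: agtccgccggGAAAACGAAAcagaagagaa

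A GAS element, searched as TTCNNNGAA (the same letters on both strands), was found in *Samhd1*, in *Eif2ak2* and in 1 of the 3 *Adar* promoters, against 8.3% of all promoters. The 250 bases before the *Samhd1* start site (chr2:157135097-157135346, minus strand) follow, with the GAS match at -235 to -227 in capitals, since *Samhd1* is among the genes described first below.
*Samhd1*: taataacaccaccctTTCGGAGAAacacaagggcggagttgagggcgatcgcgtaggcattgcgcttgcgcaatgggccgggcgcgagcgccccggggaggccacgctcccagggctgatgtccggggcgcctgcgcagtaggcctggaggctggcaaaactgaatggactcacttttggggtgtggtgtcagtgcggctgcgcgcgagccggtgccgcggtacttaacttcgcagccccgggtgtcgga
The *Adar* match stood at +23 to +31 of its start site (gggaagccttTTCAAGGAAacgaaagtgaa, chr3:89730730-89730759, plus strand) and the *Eif2ak2* match at -178 to -170 (ctgcagagctTTCCCAGAAtggaagccagg, chr17:78882731-78882760, minus strand). The letters mark matches only, and no binding was measured here.

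In young mice, none of the 9 genes passed the test across all genes (edgeR quasi-likelihood, adjusted p below 0.05), where 0.174% of 11526 genes tested did (20 genes, but 0 without young *Ythdf2* CTL 1 or *Ythdf2* CTL 2). 6 had a positive and 3 a negative log2 fold change (49.9% of all genes were positive), with a median of 0.14 over the 9 genes against -0.00093 over all genes. 3 genes, *Samhd1*, *Dhx58* and *Trex1*, were higher in *Ythdf2* CKO mice at an unadjusted p below 0.05, as were 4.26% of all genes, and for 2 of them, *Samhd1* and *Dhx58*, the 4 knockouts all exceeded the 4 controls, as for 2.68% of all genes. The likelihood ratio test with libraries as replicates, the design of the study, also called 0 of the 9 (0.85% of all genes). In aged mice none passed the test either (0% of 11961 genes tested did), nor did any with libraries as replicates (3.73% of all genes were called so), and none had an unadjusted p below 0.05 with all 9 mice (4.45% of all genes did with a higher and 5.65% with a lower value). With each aged mouse left out in turn, 1 of the 9 fits gave *Samhd1* an unadjusted p below 0.05 in edgeR (0.0339, without *Ythdf2* CTL 124). The same held for *Dhx58* (0.043, without *Ythdf2* CTL 99) and *Trex1* (0.0306, without *Ythdf2* CTL 114). The largest unadjusted p of the 9 fits was 0.234, 0.26 and 0.645 for these genes, in this order. 5 log2 fold changes were positive and 4 negative in aged mice (49.7% of all genes were positive), with a median of 0.11 against -0.0033 over all genes, and no gene separated the groups (1.78% of all genes did, with *Ythdf2* CKO higher).

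**Figure D1:**
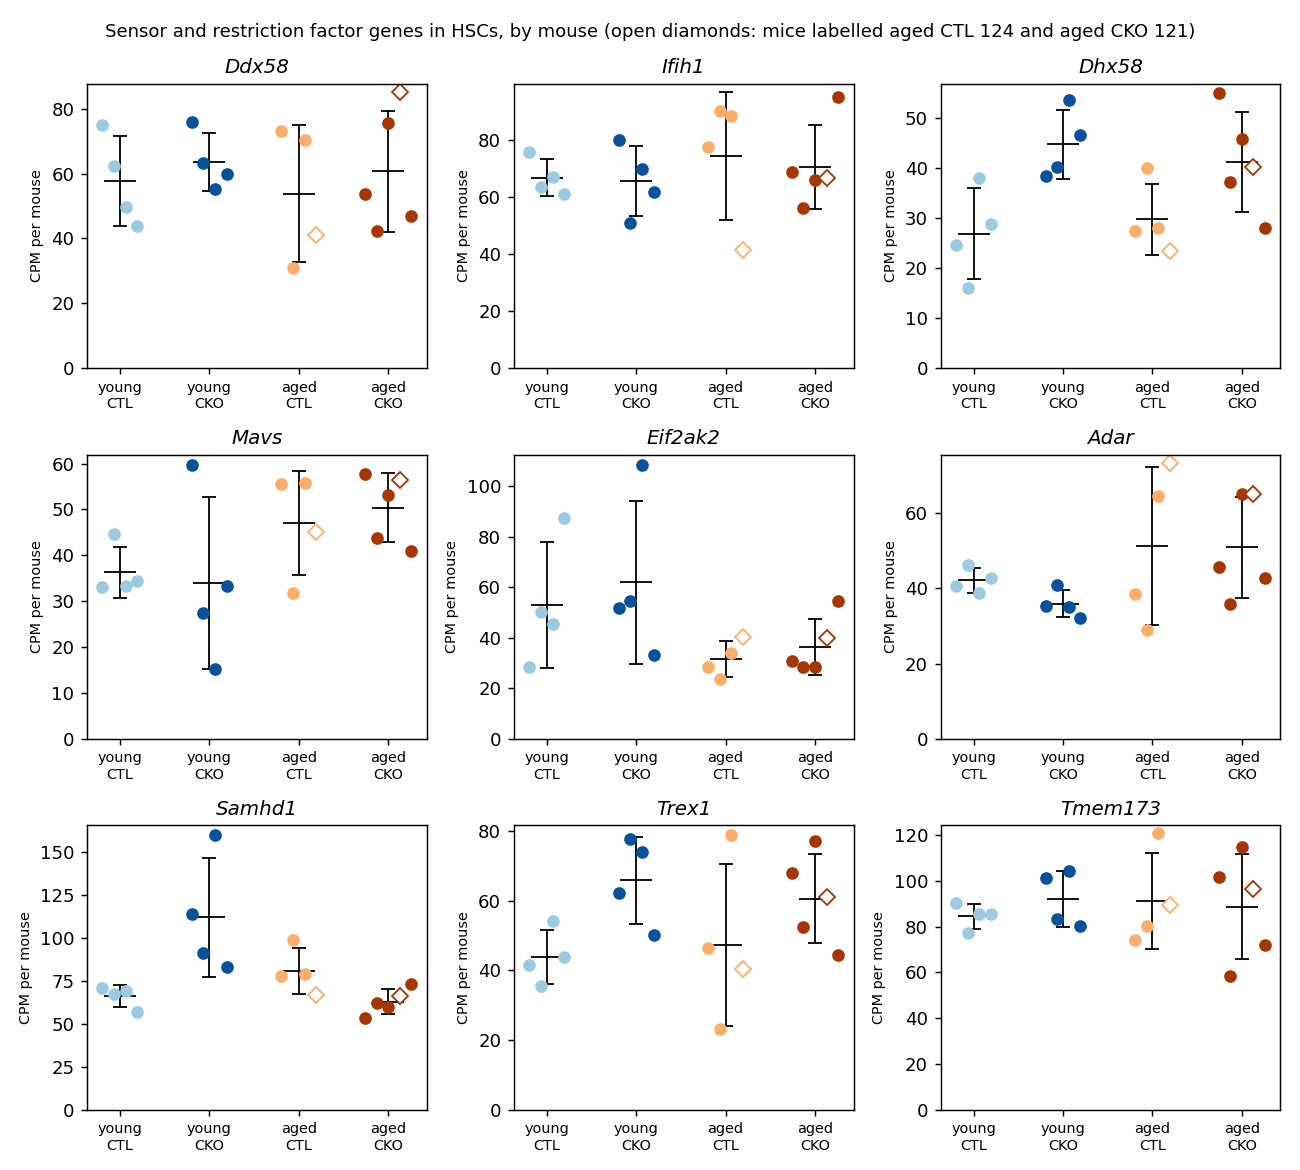
CPM per mouse (vertical axis, from 0) of each gene in the 4 groups; each point is 1 mouse, bars are the mean and SD, and open diamonds are the mice labelled aged *Ythdf2* CTL 124 and aged *Ythdf2* CKO 121. The young *Ythdf2* CKO mice lie above all young *Ythdf2* CTL mice for *Samhd1* and *Dhx58*, and the groups overlap in every other panel and at 1 yr.

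*Samhd1* (ENSMUSG00000027639.16, chr2:157097533-157135265 on GRCm38, minus strand), the dNTP hydrolase, the gene with the GAS match printed above, had the smallest p of the 9 genes in young mice. Its level was 70.6, 67.6, 69.4 and 57.1 CPM in the 4 young *Ythdf2* CTL mice and 114, 91.4, 160 and 83.1 CPM in the 4 young *Ythdf2* CKO mice. The controls were close together, and the knockouts were all higher and spread more widely. The means were 66.2 ± 6.16 and 112 ± 34.5 CPM, a 1.70-fold difference (log2 fold change 0.76, SE 0.21, 95% interval 0.32 to 1.21). The unadjusted p of 0.0023 became 0.286 after adjustment over all genes in edgeR. The two-sided exact permutation test over mice gave p = 0.0286, the smallest that 4 against 4 mice allow, in a family of 18 such tests (9 genes, 2 ages). With *Ythdf2* CKO mouse 3 left out, the log2 fold change was 0.54, the lowest over the 8 young mice, and the unadjusted p stayed below 0.05 whichever young mouse was left out.

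Single libraries of *Samhd1* were less distinct than mice. All 8 young *Ythdf2* CKO libraries lay above the median young control library (57.2 CPM), and 4 of the 8 lay above the highest (103 CPM, mouse 2, library B). Among A libraries the controls reached at most 57.3 CPM and the knockouts began at 81.5 CPM. Among B libraries the controls lay between 56.5 and 103 CPM and the knockouts between 71.2 and 128 CPM, so the groups overlapped there. The A and B libraries of a mouse differed in *Samhd1* by a median of 0.54 on the log2 scale over 16 mice, and by 1.30 at most.

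In aged mice *Samhd1* was not higher in the knockouts. It measured 77.8, 99.0, 79.0 and 66.7 CPM in the *Ythdf2* CTL mice 65, 99, 114 and 124, and 53.6, 62.2, 59.7, 66.2 and 73.3 CPM in the *Ythdf2* CKO mice 78, 81, 94, 121 and 122. All 5 mice labelled *Ythdf2* CKO, 121 included, were below the control median, and the groups overlapped only in the mouse labelled *Ythdf2* CTL 124 and *Ythdf2* CKO 122. Without the mice labelled 121 and 124, the 4 knockouts were all below the 3 controls, as for 5.41% of all genes. The log2 fold change was -0.35 (SE 0.19, 95% interval -0.76 to 0.07, edgeR adjusted p = 0.565; exact permutation p = 0.0317, where 4 against 5 mice allow 0.00794). Without the 2 mice that went against their labels it was -0.45, with an unadjusted p of 0.0388 (edgeR adjusted p = 0.4). The control mouse 99 has 1 library and the highest *Samhd1* of its group, and without it the log2 fold change was -0.24.

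The genotype effect on *Samhd1* thus differed in sign between ages, and its difference was tested in 1 fit over all 17 mice. Aged minus young, it was -1.11 on the log2 scale (SE 0.28, 95% interval -1.69 to -0.53, unadjusted p = 0.00068), which did not pass adjustment over 12352 genes (edgeR adjusted p = 0.942). Without the mice labelled *Ythdf2* CKO 121 and *Ythdf2* CTL 124 the difference was -1.21 (edgeR adjusted p = 0.161), and it lay between -1.23 and -0.89 with each of the 17 mice left out in turn. None of the 9 genes passed this test, as 0% of all genes did, and *Samhd1* was the 1 gene of the 9 with an unadjusted p below 0.05. 6 of the 9 differences were negative (51.9% of all genes), with a median of -0.05 against -0.02 over all genes. The other 8 differences lay between -0.25 (*Dhx58*) and 0.21 (*Adar*), each with an interval that included 0, of which that of *Eif2ak2* (-1.03 to 0.98) was the widest.

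**Figure D2:**
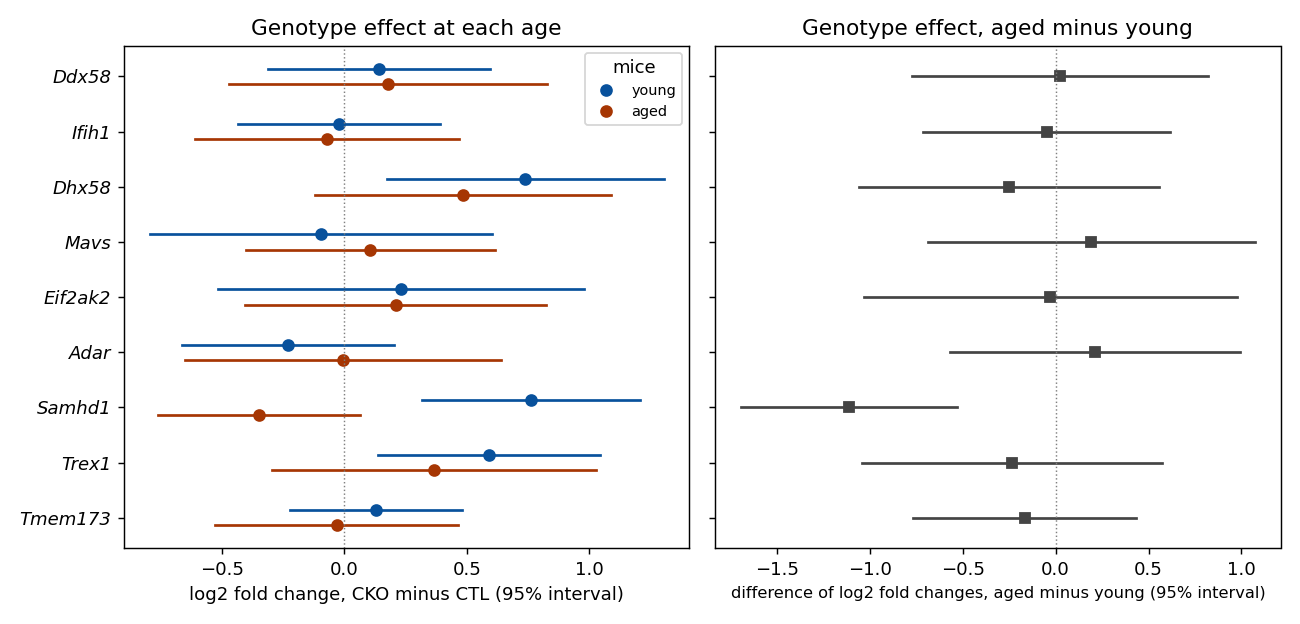
Left, the log2 fold change of each gene (*Ythdf2* CKO minus *Ythdf2* CTL, point with 95% interval) in young (blue) and aged (brown) mice; right, the difference of these effects, aged minus young, from the fit over 17 mice. Young *Samhd1*, *Dhx58* and *Trex1* have intervals above 0, no aged interval excludes 0, and on the right only the *Samhd1* interval excludes 0, all before adjustment over genes.

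Among the RNA helicases, *Dhx58* (ENSMUSG00000017830.15, chr11:100694884-100704271, minus strand), which encodes the regulator LGP2, was higher in the knockouts at an unadjusted p below 0.05 in young mice. It measured 24.6, 16.1, 38.0 and 28.7 CPM in young *Ythdf2* CTL mice and 38.4, 40.2, 53.8 and 46.7 CPM in young *Ythdf2* CKO mice. The groups did not overlap, but the highest control (mouse 3) and the lowest knockout (mouse 1) were nearly equal. The means were 26.9 ± 9.12 and 44.8 ± 6.98 CPM (log2 fold change 0.74, SE 0.27, 95% interval 0.17 to 1.31, unadjusted p = 0.0139, edgeR adjusted p = 0.512; exact permutation p = 0.0286). With Y-linked counts as covariate the log2 fold change was 0.65 and the unadjusted p in edgeR 0.0623.

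In aged mice *Dhx58* was 27.5, 40.0, 28.1 and 23.4 CPM in *Ythdf2* CTL 65, 99, 114 and 124, and 55.0, 37.3, 45.9, 40.3 and 28.0 CPM in *Ythdf2* CKO 78, 81, 94, 121 and 122. 3 of the 5 mice labelled *Ythdf2* CKO exceeded the highest control, among them the mouse labelled 121 (40.3 against 40.0 CPM). Without the mice labelled 121 and 124, 2 of 4 knockouts exceeded the highest control. The log2 fold change was 0.48 (SE 0.28, edgeR adjusted p = 0.587) and 0.39 without the 2 mice that went against their labels (edgeR adjusted p = 0.672). *Dhx58* was also the gene whose paired libraries differed most. Its A and B values differed by a median of 0.69 on the log2 scale, with 51.2 and 6.67 CPM in *Ythdf2* CTL 114 and 70.6 and 17.1 CPM in young *Ythdf2* CKO 3. An antisense transcript, *Dhx58os*, covers 4.31% of the exon bases of *Dhx58* in GENCODE M21, and without strand its reads cannot be told apart from those of *Dhx58*.

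The sensors that signal, RIG-I and MDA5, gave small differences at both ages, and both carry the ISRE core printed above. *Ddx58* (ENSMUSG00000040296.15, chr4:40203773-40239828, minus strand) was 57.9 ± 13.9 CPM in young *Ythdf2* CTL and 63.7 ± 8.94 CPM in young *Ythdf2* CKO mice (log2 fold change 0.14, 95% interval -0.31 to 0.59). In aged mice it was 53.9 ± 21.1 and 60.8 ± 18.7 CPM (log2 fold change 0.18, 95% interval -0.47 to 0.83). The highest aged value, 85.2 CPM, belonged to the mouse labelled *Ythdf2* CKO 121, and without this mouse and *Ythdf2* CTL 124 the log2 fold change was -0.10.

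*Ifih1* (ENSMUSG00000026896.14, chr2:62595798-62646255, minus strand) varied little among young controls, with 75.7, 63.2, 67.1 and 60.9 CPM. The young knockouts had 79.9, 50.8, 69.8 and 61.8 CPM, which span the whole control range (log2 fold change -0.02, 95% interval -0.43 to 0.39). Its aged values were 74.3 ± 22.6 and 70.4 ± 14.6 CPM, with the lowest, 41.5 CPM, in the mouse labelled *Ythdf2* CTL 124 (log2 fold change -0.07, and -0.26 without the 2 mice). For these 2 sensors the young intervals leave out the value fitted for *Samhd1* (0.76), but they overlap its interval (0.32 to 1.21). Whether the genes differ in their genotype effect was not tested.

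*Mavs* (ENSMUSG00000037523.13, chr2:131234063-131248025, plus strand), the adaptor that both sensors share, did not move in 1 direction. Young *Ythdf2* CTL mice had 33.0, 44.6, 33.2 and 34.4 CPM, and young *Ythdf2* CKO mice had 59.7, 27.4, 15.3 and 33.4 CPM. The knockouts included both the highest and the lowest value, with a coefficient of variation of 55.2% against 15.3% in the controls. Both libraries of a mouse gave the same picture at these ends, 62.8 and 56.0 CPM in *Ythdf2* CKO 1 and 17.6 and 10.01 CPM in *Ythdf2* CKO 3. The log2 fold change was -0.10 (95% interval -0.80 to 0.60) in young mice and 0.11 (95% interval -0.40 to 0.61) in aged mice, where the means were 47.0 ± 11.3 and 50.4 ± 7.59 CPM and the value without the 2 mice was 0.03.

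Of the enzymes that act on double-stranded RNA, *Eif2ak2* (ENSMUSG00000024079.4, chr17:78852564-78882573, minus strand) had the widest spread in young controls, and it carries both elements printed above. Young *Ythdf2* CTL mice had 28.4, 50.1, 45.6 and 87.6 CPM and young *Ythdf2* CKO mice 51.8, 54.5, 108 and 33.4 CPM. The groups overlapped widely, and 1 mouse in each stood high. The high control, mouse 4, rested on 1 library (140 CPM in A, 26.8 CPM in B), whereas both libraries of *Ythdf2* CKO 3 were high (109 and 104 CPM). The log2 fold change was 0.23 (SE 0.35), -0.18 without *Ythdf2* CKO 3 and 0.58 without *Ythdf2* CTL 4. In aged mice the means were 31.6 ± 7.30 and 36.4 ± 11.2 CPM (log2 fold change 0.21, SE 0.29, 0.31 without the 2 mice and 0.022 without *Ythdf2* CKO 122).

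*Adar* (ENSMUSG00000027951.16, chr3:89715022-89753446, plus strand), the RNA editing enzyme, leaned the other way in young mice. It was 40.7, 46.3, 38.6 and 42.8 CPM in young *Ythdf2* CTL mice and 35.4, 40.8, 35.0 and 32.2 CPM in young *Ythdf2* CKO mice. All 4 knockouts lay below the control median, and 1 of them (mouse 2) lay within the control range. The log2 fold change was -0.23 (SE 0.20, edgeR adjusted p = 0.899; exact permutation p = 0.0857). In aged mice *Adar* was 51.3 ± 21.0 and 50.8 ± 13.5 CPM, a log2 fold change of -0.0046 (95% interval -0.65 to 0.64), and 0.09 without the 2 mice. Exons of *Chrnb2*, on the opposite strand, cover 16.8% of the exon bases of *Adar*.

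Of the genes of DNA sensing, *Trex1* (ENSMUSG00000049734.9, chr9:109057933-109059734, minus strand) was higher in young knockouts at an unadjusted p below 0.05. Young *Ythdf2* CTL mice had 41.6, 35.6, 54.3 and 43.9 CPM and young *Ythdf2* CKO mice 62.1, 77.7, 73.8 and 50.0 CPM. 3 of the 4 knockouts exceeded every control, and mouse 4 lay within the control range. The means were 43.8 ± 7.80 and 65.9 ± 12.5 CPM (log2 fold change 0.59, SE 0.21, 95% interval 0.14 to 1.04, unadjusted p = 0.0141, edgeR adjusted p = 0.512; exact permutation p = 0.0571). With all 17 mice in 1 fit the unadjusted p in edgeR was 0.0506, at a log2 fold change of 0.59. In aged mice *Trex1* was 46.4, 23.1, 78.8 and 40.5 CPM in *Ythdf2* CTL 65, 99, 114 and 124, and 67.8, 52.5, 77.3, 60.9 and 44.5 CPM in *Ythdf2* CKO 78, 81, 94, 121 and 122. The controls spanned the whole range of the knockouts. The log2 fold change was 0.37 (SE 0.31, edgeR adjusted p = 0.747), 0.28 without the 2 mice, 0.72 without *Ythdf2* CTL 114 and 0.13 without *Ythdf2* CTL 99.

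In GENCODE M21 the exons of *Atrip*, a gene of the DNA damage response on the same strand, cover 100% of the exon bases of *Trex1*, so the split of reads between these 2 genes is uncertain. *Atrip* itself was 48.6 ± 6.52 CPM in young *Ythdf2* CTL and 51.1 ± 7.52 CPM in young *Ythdf2* CKO mice (log2 fold change 0.08, SE 0.20). Its level followed that of *Trex1* loosely over mice (Pearson r = 0.24 over 17 mice after the mean of each age was subtracted).

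*Tmem173* (ENSMUSG00000024349.10, chr18:35733679-35740554, minus strand), which encodes STING, had the highest CPM of the 9 genes in young controls and varied least there. Young *Ythdf2* CTL mice had 90.2, 77.2, 85.7 and 85.4 CPM and young *Ythdf2* CKO mice 101, 83.2, 104 and 80.2 CPM. 2 knockouts exceeded every control and the other 2 lay within the control range (log2 fold change 0.13, 95% interval -0.22 to 0.48). Aged values were 91.2 ± 20.8 and 88.8 ± 22.9 CPM (log2 fold change -0.03, 95% interval -0.53 to 0.47, and -0.09 without the 2 mice).

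**Figure D3:**
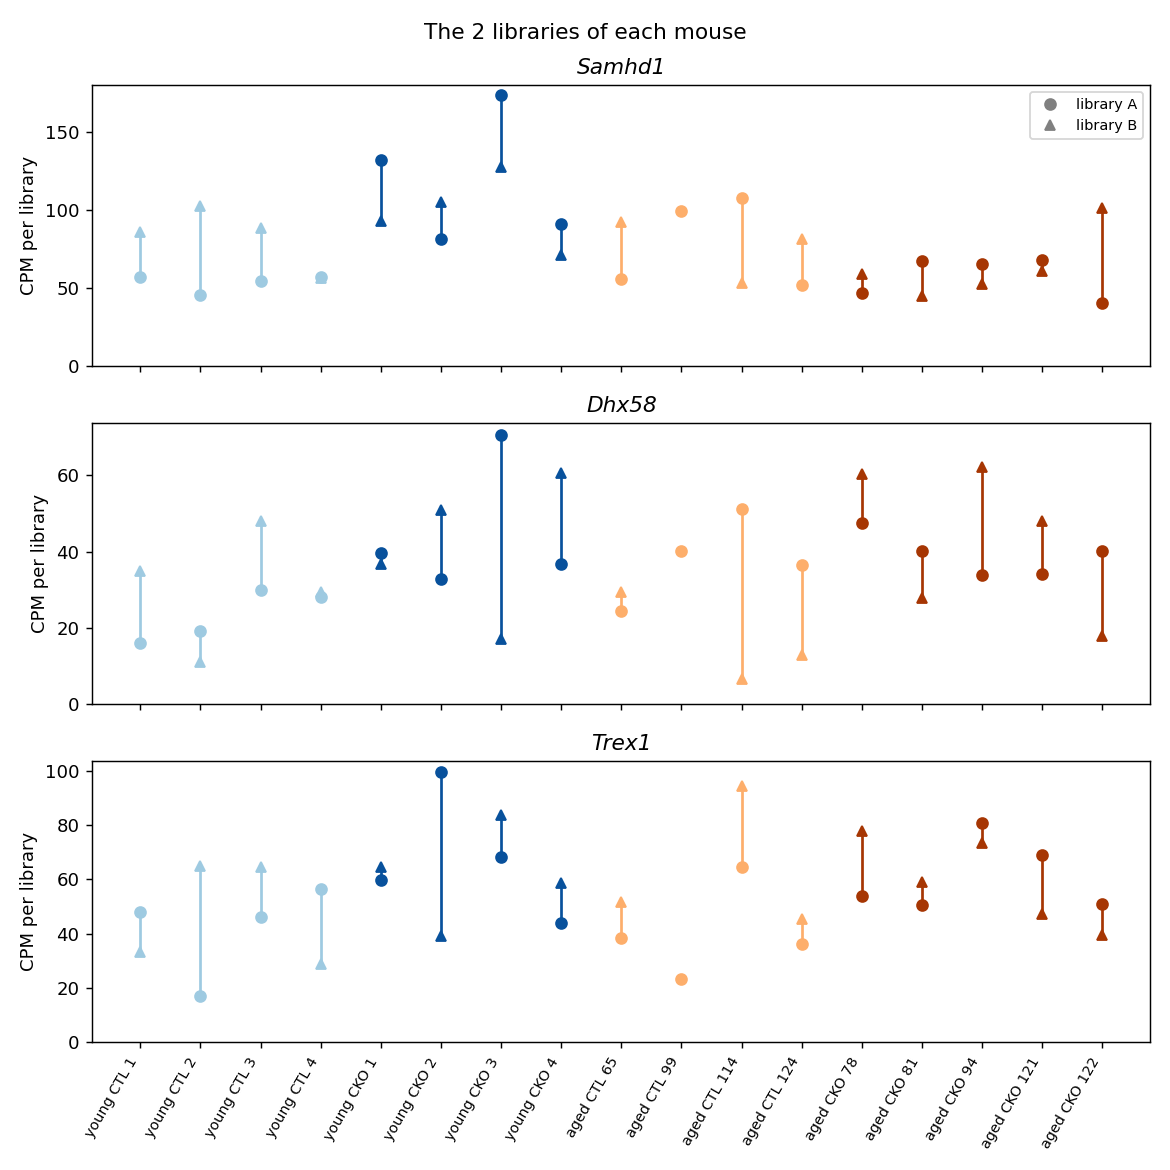
CPM per library (vertical axes, from 0) of *Samhd1*, *Dhx58* and *Trex1*; circles are library A and triangles library B of the same mouse, joined by a line, with *Ythdf2* CTL in pale and *Ythdf2* CKO in dark colors (blue young, brown aged). The lines of *Dhx58* are long, as in aged *Ythdf2* CTL 114 (51.2 and 6.67 CPM), while all 8 young *Ythdf2* CKO libraries of *Samhd1* lie at 71.2 CPM or higher.

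Other values moved with genotype in the same libraries. The summed level of 6 megakaryocyte and platelet markers (*Pf4*, *Ppbp*, *Itga2b*, *Gp1ba*, *Gp9* and *Vwf*, all 6 above 3 counts in every mouse) was between 507 and 813 CPM in young *Ythdf2* CTL and between 966 and 2998 CPM in young *Ythdf2* CKO mice. In aged mice it was between 373 and 538 CPM and between 543 and 1894 CPM, so the sums did not overlap at either age. Without the mice labelled *Ythdf2* CKO 121 and *Ythdf2* CTL 124 the aged sums were between 373 and 538 CPM and between 1562 and 1894 CPM. *Pf4*, a platelet chemokine, had the largest medians of the 6 in all groups and carried the young sums (median 413 CPM in *Ythdf2* CTL and 1304 CPM in *Ythdf2* CKO mice), while the medians of *Gp1ba* (25.9 and 23.0 CPM) and *Gp9* (82.3 and 63.6 CPM) were lower in young *Ythdf2* CKO mice. The 7 HSC markers named above summed to between 942 and 1137 CPM in young *Ythdf2* CTL and between 1101 and 1687 CPM in young *Ythdf2* CKO mice, and to between 1012 and 1361 CPM and between 969 and 1552 CPM in aged mice, with overlap at both ages, in aged mice also without the 2 mice (1085 to 1361 and 969 to 1552 CPM). The 3 B cell markers in the table (*Cd79a*, *Cd79b* and *Ms4a1* of 6 listed) summed to between 78.6 and 88.9 CPM in young *Ythdf2* CTL and between 89.8 and 152 CPM in young *Ythdf2* CKO mice, with 2 of the 3 at 0 in all mice of each young group. The sums of the other lists overlapped between young genotypes (T and NK cell markers 411 to 539 and 374 to 488 CPM, myeloid 763 to 838 and 743 to 906 CPM, plasmacytoid dendritic cell 127 to 145 and 126 to 169 CPM, erythroid 18.6 to 42.5 and 33.0 to 47.6 CPM). The part of any of these in the values of *Samhd1*, *Dhx58* and *Trex1* was not tested, and a change in the share of cells cannot be told apart from a change in RNA per cell in such bulk samples.

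Levels can be compared between genes only per length, here that of all annotated exons of a gene joined. The length of the transcripts present was not measured, so the order below depends on the annotation. Per kilobase of exons (GENCODE M21), young *Ythdf2* CTL mice had the most *Trex1* (38.2 ± 6.80 CPM per kb) and *Tmem173* (30.9 ± 1.98), whose ranges overlapped. For *Trex1* the split of reads with *Atrip* is uncertain, as above. *Mavs* (10.9 ± 1.67), *Eif2ak2* (10.3 ± 4.88), *Dhx58* (8.21 ± 2.79), *Ddx58* (8.21 ± 1.98), *Ifih1* (8.17 ± 0.793) and *Samhd1* (7.23 ± 0.673) followed below, and neighbors in this order did not differ beyond their spread. *Adar* was the lowest (5.19 ± 0.402 CPM per kb), and its highest control mouse (5.70) was below the lowest value of *Samhd1* (6.24). In young *Ythdf2* CKO mice *Dhx58* (13.7 ± 2.13) and *Samhd1* (12.3 ± 3.77) followed *Trex1* and *Tmem173*, with ranges that overlapped each other and those of *Eif2ak2* and *Mavs*. In the 4 aged *Ythdf2* CTL mice, 124 included, the lowest mean was that of *Eif2ak2* (6.18 ± 1.43 CPM per kb), next to *Adar* (6.31 ± 2.59), and the 2 overlapped.

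**Figure D4:**
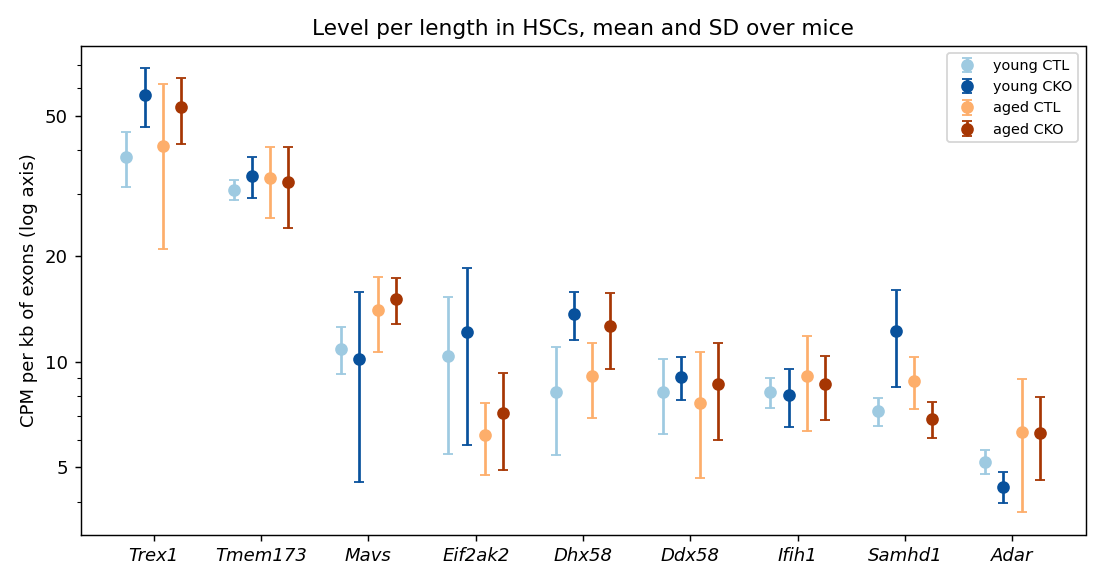
Mean level per kilobase of exons (log axis, CPM per kb, with SD over 4 or 5 mice) of the 9 genes in the 4 groups, ordered by the young *Ythdf2* CTL mean. *Trex1* and *Tmem173* stand above the other 7 in all groups, and *Adar* is the lowest in young mice.

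Across mice the 9 genes did not form 1 block. After the mean of each age was subtracted, the 36 pairs of genes had a median Pearson r of 0.15 over 17 mice, against 0.01 for pairs of a member and any other gene, and 26 pairs were positive. The highest were *Ddx58* with *Trex1* (0.58) and *Trex1* with *Tmem173* (0.55), and the lowest was *Mavs* with *Samhd1* (-0.49). *Samhd1* had r = 0.32 with *Dhx58* and 0.08 with *Trex1*, the other genes higher in young knockouts. All pairs share libraries and depth, and the values are descriptions.

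Among all tested genes, those most like each member over the 17 mice were mostly not of this pathway. They were picked as the highest of 12352 genes, where high r can arise by chance, and genotype was not subtracted. *Samhd1* was most like *Mob3c* (r = 0.86) and *Atp10d* (0.74), *Dhx58* like *Gpr146* (0.85) and *Pabpc4l* (0.84), and *Trex1* like *Cmtm7* (0.88) and *Cd52* (0.87). *Ddx58* was most like *Rnf31* (0.84), which encodes a subunit of the linear ubiquitin ligase, and *Slc9a7* (0.81), and *Ifih1* like *Gpx7* (0.89) and *Zfp597* (0.86). *Mavs* was most like *Mob1a* (0.84) and *Derl1* (0.83), *Eif2ak2* like *Arhgap42* (0.84) and *Cdc42bpb* (0.80), *Adar* like *Rpl8* and *Ppp6r1* (both 0.87), and *Tmem173* like *Zfp532* (0.77) and *Cdc14b* (0.76).

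The partners of these genes were followed in lists by role, and the genes named are among those with the smallest p in each direction. Of 31 tested partners of the RIG-I-like receptors, 0 passed the test in young or aged mice (edgeR adjusted p below 0.05), while 5 were higher and 1 lower in young mice at an unadjusted p below 0.05 (4.26% and 2.8% of all genes), with a median log2 fold change of 0.08. *Tradd*, an adaptor of death receptors that also joins the MAVS complex, was 35.6 ± 7.07 CPM in young *Ythdf2* CTL and 69.1 ± 7.92 CPM in young *Ythdf2* CKO mice, without overlap (log2 fold change 0.96, SE 0.21, edgeR adjusted p = 0.101). *Ddx3x*, a helicase that assists signaling, was 124 ± 25.4 and 89.5 ± 23.9 CPM (log2 fold change -0.46, edgeR adjusted p = 0.679). In aged mice 3 were higher and 4 had lower values by the same unadjusted threshold (4.45% and 5.65% of all genes), led by *G3bp1*, a stress granule protein (log2 fold change 0.43), and *Traf2*, a ubiquitin ligase (-0.50, without overlap). With 121 and 124 left out, 0 were called (0.333% of all genes), 2 had higher and 3 had lower values by the unadjusted threshold (5.53% and 6.05% of all genes), and *G3bp1* had 0.39 and *Traf2* -0.48. The likelihood ratio test with libraries as replicates called 2 of these partners higher in young mice (0.85% of all genes called in either direction), *Tradd* (log2 fold change 0.97, edgeR adjusted p = 0.00211) and *Irf7*, a transcription factor of the interferon response (1.11, edgeR adjusted p = 0.00408). In aged mice it called 2 lower (3.73% of all genes), *Trim25*, a ubiquitin ligase that acts on RIG-I (-1.04, edgeR adjusted p = 0.042), and *Ddx3x* (-0.86, edgeR adjusted p = 0.0223). This test called 0 of the partners in aged mice once 121 and 124 were left out (3.96% of all genes), with -0.56 for *Trim25* (edgeR adjusted p = 0.375) and -0.45 for *Ddx3x* (edgeR adjusted p = 0.281). *Irf7* and *Trim25* are named because this test called them, after their values were seen.

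Of 24 effectors of double-stranded RNA and related kinases, 0 passed the test at either age, and 5 were higher and 0 lower in young mice at an unadjusted p below 0.05, against 4.26% and 2.8% of all genes (median log2 fold change 0.15). *Oasl2*, a member of the oligoadenylate synthetase family, was 87.8 ± 23.6 CPM in young *Ythdf2* CTL and 141 ± 19.9 CPM in young *Ythdf2* CKO mice, without overlap (log2 fold change 0.69, SE 0.20, edgeR adjusted p = 0.332). In aged mice 4 were higher and 2 lower (4.45% and 5.65% of all genes), among them *Oas1g* (7.10 ± 2.82 and 17.6 ± 3.92 CPM, log2 fold change 1.30, without overlap, edgeR adjusted p = 0.38) and *Dicer1*, which cuts double-stranded RNA (log2 fold change -1.05, edgeR adjusted p = 0.394). With libraries as replicates, the likelihood ratio test called *Dicer1* lower in aged mice (log2 fold change -1.13, edgeR adjusted p = 0.0269), 1 of 24 where 3.73% of all genes were called, and 0 of these effectors in young mice. It called 0 of them in aged mice once 121 and 124 were left out (*Dicer1* -0.57, edgeR adjusted p = 0.352). The quasi-likelihood test then gave 1 with a higher and 1 with a lower value by the unadjusted threshold (5.53% and 6.05% of all genes), with 1.33 for *Oas1g* (edgeR adjusted p = 0.299) and -0.59 for *Dicer1* (edgeR adjusted p = 0.553).

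For the other lists the quasi-likelihood test is given, and the likelihood ratio test with libraries as replicates called as many genes of each list at an adjusted p below 0.05 with all mice. Of 18 RNA decay and restriction factors, 0 were called, and 1 in young mice was higher at an unadjusted p below 0.05, *Slfn5* (log2 fold change 1.03, SE 0.48; 4.26% of all genes), while 2 in aged mice were lower (5.65% of all genes); *Slfn9* had the smallest p among those with a positive value in aged mice (0.54). With 121 and 124 left out, 1 of the 18 had a higher and 4 a lower value by that unadjusted threshold (5.53% and 6.05% of all genes), and *Slfn9* had 1.10 (edgeR adjusted p = 0.0917). The likelihood ratio test over libraries then called 2 of the list (3.96% of all genes), *Slfn9* higher (1.05, edgeR adjusted p = 0.00205) and *Apobec3*, a cytidine deaminase that restricts retroviruses, lower (-1.07, edgeR adjusted p = 0.0112). With mice as replicates *Apobec3* was not called, with -0.92 over these 7 mice (edgeR adjusted p = 0.321) and -0.39 over all 9 aged mice (edgeR adjusted p = 0.798), and it is named after its value was seen.

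Of the tested partners in DNA sensing (21 in young, 22 in aged mice), 0 were called. At an unadjusted p below 0.05, 2 had higher and 0 had lower values in young mice (4.26% and 2.8% of all genes) and 0 higher and 1 lower in aged mice (4.45% and 5.65%). The smallest p in each direction belonged to *Zbp1*, a sensor of Z-form nucleic acid (log2 fold change 1.00, edgeR adjusted p = 0.512), and *Stim1* (-0.56, edgeR adjusted p = 0.728) in young mice, and to *Enpp1* (0.52, edgeR adjusted p = 0.736) and *Trim56* (-2.04, edgeR adjusted p = 0.398, with controls at 17.1 ± 20.2 CPM) in aged mice. With 121 and 124 left out, 0 of 21 tested had a higher and 1 a lower value by the unadjusted threshold (5.53% and 6.05% of all genes). That gene was *Lsm14a* (-0.69, edgeR adjusted p = 0.348), named after its value was seen, while *Enpp1* had 0.78 and *Trim56* -0.89 (edgeR adjusted p = 0.702). Of 12 nucleases that clear self nucleic acid, 0 were called, and 3 were higher in aged mice at an unadjusted p below 0.05 (4.45% of all genes), led by *Dnase2a*, a lysosomal DNase (log2 fold change 0.95, edgeR adjusted p = 0.417). Without the mice labelled 121 and 124, 3 of 12 were again higher (5.53% of all genes), though not all the same genes. There *Dnase2a* had 0.94 and *Dnase1* -0.40. *Dnase1* had 0.73 in young and -0.51 in aged mice, and *Rnaseh2c*, a subunit of RNase H2, had -0.20 in young mice. Of 8 endosomal Toll-like receptors and partners, 0 were called at either age. At an unadjusted p below 0.05, 0 differed in young mice and 1, *Myd88*, was higher in aged mice (4.45% of all genes), but 0 with 121 and 124 left out (5.53%). *Myd88*, their adaptor, was 78.9 ± 34.9 CPM in aged *Ythdf2* CTL and 124 ± 6.19 CPM in aged *Ythdf2* CKO mice, without overlap (log2 fold change 0.66, edgeR adjusted p = 0.453), *Ticam1* had -0.90 in aged mice, and *Unc93b1* and *Irak1* had 0.40 and -0.35 in young mice. With those 2 mice left out, *Myd88* had 0.40 (edgeR adjusted p = 0.45) and *Ticam1* -0.37. Of 5 tested genes of type I interferon signaling, 1 was called higher in young mice (0.174% of all genes were called) and 0 in aged mice (0% of all genes); the young call, like all 20, was lost without *Ythdf2* CTL 1 or *Ythdf2* CTL 2. The interferon receptor gene *Ifnar2* had a log2 fold change of -0.06 in young mice, and *Ifnar1* and *Stat2* had 0.73 and -0.46 in aged mice, none of these 3 with an adjusted p below 0.05 in edgeR. With 121 and 124 left out, 2 of the 5 had lower values at an unadjusted p below 0.05 (6.05% of all genes), and *Ifnar1* had 0.27 and *Stat2* -0.68, with adjusted p of 0.685 and 0.428 in edgeR.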

How the data were processed

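The authors aligned the reads of 34 SMART-Seq2 libraries to GRCm38 (mm10 per the labels) with HISAT2, assigned them to genes with Rsubread and deposited raw counts per gene and library. Annotation, strand and multi-mapping rules are not given in the sources used here. Library 99 B was left out, as in the study, and the libraries of a mouse were added (33 libraries, 17 mice, the replicates). Counts were tested in R 4.3.3 with edgeR 4.0.16 (filterByExpr with minimum count 10 and total 15, TMM, quasi-likelihood test, Benjamini-Hochberg over all genes tested, threshold 0.05), for young and aged mice apart, and over 17 mice for the difference. SEs were derived from the fold change and its F statistic, and intervals are 95%. Displayed CPM use TMM over 17 mice, and log2 CPM a prior count of 2. Permutation tests were exact and two-sided. Scripts were tested on simulated data.

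The 9 genes and the lists were chosen with earlier results of these data known. Named are the 9 genes, *Ythdf2*, from each list the genes called and the smallest p in each direction and age, and the 2 genes most correlated with each member; results for some genes are not reported here. Positions and exon lengths come from GENCODE M21 (GRCm38), which held 13070 of the 13108 row names; start site sequences come from RefSeq (GRCm38.p6). Alternatives were the likelihood ratio test over libraries (the study's design) or mice, DESeq2 1.42.0, limma 3.58.1 voom with the mouse as random effect, DESeq2 size factors, other filters, Y-linked genes as covariate, 1 fit over all mice, blocks, and leaving out mice. Libraries hold no molecular identifiers, so the 3-count limit covers counting error only.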

Additional observations from a re-analysis of the deposited data

Results flagged for a closer look

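2 values stood out by rules applied to each of the 9 genes. The level of *Mavs* in young *Ythdf2* CTL 2, 44.6 CPM, lay apart from the other 3 young controls, the next of which had 34.4 CPM. Its 2 libraries had 29.5 and 68.6 CPM, so that library B alone was high. It was the 1 such sample found in 36 groups of 4 or 5 mice, where chance gives about 1 in 20.

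The genotype effect on *Samhd1* took opposite signs at the 2 ages, with all 4 young knockouts above and all 5 aged mice labelled *Ythdf2* CKO below the mean of their controls, as were the 4 that remain without the mice labelled *Ythdf2* CKO 121 and *Ythdf2* CTL 124, whose *Ythdf2* went against their labels. The difference, aged minus young, was -1.11 on the log2 scale (unadjusted p = 0.00068, edgeR adjusted p = 0.942), and age cannot be told apart in it from what the library names, which differ between the ages, mark.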

How the results depend on the processing

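Under every alternative run, 0 of the 9 genes were called in young mice, in aged mice or for the difference between ages, also with each mouse left out (0 to 0 called). The lowest adjusted p over the alternatives was 0.0693, for *Samhd1* in young mice (0.0693 to 0.656 over 11 alternatives). The signs of *Samhd1*, *Dhx58* and *Trex1* in young and aged mice held in every alternative and with every mouse left out. Signs of other values turned as follows, and the cause was not tested. With Y-linked genes as covariate, young *Ifih1* was 0.12, *Mavs* 0.13 and *Eif2ak2* -0.048, aged *Adar* 0.013, and the difference between ages of *Eif2ak2* 0.19. With voom over libraries, aged *Ifih1* was 0.0046 and *Tmem173* 0.048, and the differences of *Ddx58* and *Ifih1* -0.12 and 0.075. With the library letter as a block in voom, aged *Ifih1* was 0.011 and *Tmem173* 0.0050, and the differences of *Ddx58* and *Ifih1* -0.13 and 0.079. The likelihood ratio test over libraries gave -0.10 for the difference of *Ddx58*. Without aged *Ythdf2* CKO 121 and *Ythdf2* CTL 124, aged *Ddx58* was -0.10 and *Adar* 0.095, and the differences of *Ddx58* and *Eif2ak2* -0.25 and 0.082.

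With each mouse left out, young values ranged from -0.13 to 0.085 (*Ifih1*), -0.51 to 0.15 (*Mavs*) and -0.18 to 0.58 (*Eif2ak2*). Aged values ranged from -0.023 to 0.34 (*Ddx58*), -0.28 to 0.023 (*Ifih1*), -0.051 to 0.19 (*Mavs*), -0.21 to 0.20 (*Adar*) and -0.15 to 0.13 (*Tmem173*). Differences between ages ranged from -0.16 to 0.20 (*Ddx58*), -0.24 to 0.063 (*Ifih1*), -0.054 to 0.61 (*Mavs*), -0.39 to 0.38 (*Eif2ak2*) and -0.45 to 0.12 (*Trex1*). Without a change of sign, young *Ddx58* ranged from 0.028 to 0.29 and *Tmem173* from 0.063 to 0.19, aged *Eif2ak2* from 0.022 to 0.34, and the differences of *Dhx58* from -0.47 to -0.073, *Adar* from 0.017 to 0.44 and *Tmem173* from -0.28 to -0.0019.

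The mouse number as a block in young mice called 0 of the 9 genes and 14 of all genes, against 20 without it. Same-numbered young mice did not deviate together (r between -0.02 and 0.05 over genes). Paired mice need not deviate together, so this cannot settle whether the numbers pair the mice. Counts of all genes called moved with the test: 20 (quasi-likelihood), 67 (likelihood ratio over mice), 77 (DESeq2), 90 (likelihood ratio over libraries), 10 (Y-linked covariate) and 1 (1 fit over all mice) in young mice, and 0, 76, 104, 420, 0 and 5 in aged mice, 40 without the 2 mice that went against their labels. Leaving out 1 young mouse gave 0 genes called without *Ythdf2* CTL 1 or *Ythdf2* CTL 2 and 6 to 18 without any other; leaving out 1 aged mouse gave 16 without the mouse labelled *Ythdf2* CKO 121, 1 without *Ythdf2* CTL 65 and 0 otherwise. The pathway lists without the mice labelled 121 and 124 were added after seeing the data.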
